A study of Homo sapiens with 20 samples.

Results

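The mRNAs described here encode the folding machinery of the endoplasmic reticulum (ER), the translocon through which proteins enter it, and the unfolded protein response (UPR) that adjusts both. They are a list of 40 gene symbols, all of which were found among the 17113 protein-coding genes of the count table. The study sequenced 10 human lines of colorectal cancer, with no treatment: COLO-201, HCT 116, HT-29, LoVo, LS123, LS513, LS1034, SNU-C1, SW480 and WiDr. From each came RNA of extracellular vesicles, the small membrane particles that cells release, and total RNA of the cells themselves. The study asked whether vesicle RNA reflects the RNA of the cells it came from. Each line gave 1 vesicle library and 1 cell library, so the cell line is the replicate (n = 10) and there is no measure of how cultures of 1 line vary.

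Vesicle libraries were made with a low-input SMART-Seq kit and tagmentation after an exosome RNA isolation, and cell libraries with a stranded kit that removes ribosomal RNA. Compartment and library kit coincide in every line and cannot be told apart. The lines grew in medium with fetal bovine serum. Total counts were 1.75 to 24.4 M in vesicle libraries and 24.8 to 37.4 M in cell libraries. Vesicle libraries also held counts on genes that were nearly silent in the cells. This background, estimated from 2081 genes that never exceeded 10 counts in a cell library, came to 1.88 to 6.67% of the counts in the 5 vesicle libraries where it was lowest (SW480, COLO-201, HT-29, HCT 116 and LS513). It came to 17.5 to 46.4% in the other 5 vesicle libraries (LS1034, LoVo, WiDr, LS123 and SNU-C1) and to 0.0328 to 0.156% in cell libraries. The cell values are held low by the choice of these genes, so they cannot be set against the vesicle values. All 12 markers of colon epithelium reached a mean of 1 CPM in both compartments, with sums of 3134 to 17837 CPM in vesicles and 3190 to 20558 CPM in cells. For all markers of cell types, CPM are read counts scaled to library size alone. Elsewhere, unless stated, CPM are read counts scaled to library size with TMM factors. The cell profiles of HT-29 and WiDr (r = 0.86) and of HCT 116 and LS123 (r = 0.81), as deviations from the mean over lines, were far closer than the next pair (r = 0.36). Whether these lines are independent, and whether LS123 is correctly labelled, could not be settled from the files, so n = 10 may overstate the replication. Some results are also given without WiDr and LS123, but not the counts of non-overlapping groups or of lines. Without WiDr and LS123, 31 of the 40 genes were called lower in vesicles than in cells. The share over all genes in that fit is not given here.

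Proteins bound for secretion or for membranes are recognised by the signal recognition particle, docked at its receptor (SRPRA, SRPRB) and passed through the SEC61 channel into the ER. There, chaperones such as HSPA5 (BiP) bind unfolded chains, lectins hold glycoproteins, and disulfide isomerases form and reshuffle disulfide bonds. Chains that fail to fold are sent back to the cytosol for degradation. When unfolded chains build up, the sensors ATF6, ERN1 and EIF2AK3 signal to the nucleus and raise transcription of the chaperone genes, partly through promoter elements named ERSE, ERSE-II and UPRE. Secretory epithelia such as the colon rely heavily on this system.

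The promoter elements are shown because they mark which of the 40 genes carry the DNA letters read by that response. RefSeq windows of GRCh38.p14, from 250 bases before to 50 bases after the start site, were found for 38 of the 40 genes (PDIA3 and SRPRA had none). The ERSE, CCAAT and CCACG with 9 bases between them on either strand, was present in 25 of 27305 genes with a window (0.0916%) and in 8 of the 38 genes (21.1%). Each is printed on the gene's strand, 5′ to 3′, with the element in capitals. It reads as CCAAT first on the gene strand and as CGTGG first on the opposite strand.
HSPA5 (chr9:125241381-125241419, minus strand): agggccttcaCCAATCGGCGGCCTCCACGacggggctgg
HSP90B1, upstream (chr12:103930206-103930244, plus strand): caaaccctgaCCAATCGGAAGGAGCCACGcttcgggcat
HSP90B1, downstream (chr12:103930311-103930349, plus strand): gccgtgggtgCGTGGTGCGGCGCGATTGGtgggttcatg
PDIA6 (chr2:10812843-10812881, minus strand): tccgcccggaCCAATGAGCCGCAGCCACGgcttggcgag
CANX (chr5:179698768-179698806, plus strand): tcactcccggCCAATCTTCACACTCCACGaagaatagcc
CALR (chr19:12938374-12938412, plus strand): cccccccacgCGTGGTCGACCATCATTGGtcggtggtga
XBP1 (chr22:28800593-28800631, minus strand): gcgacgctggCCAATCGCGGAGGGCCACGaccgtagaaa
CRELD2 (chr22:49918544-49918582, plus strand): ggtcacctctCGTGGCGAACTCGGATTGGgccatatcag
ERO1B (chr1:236282173-236282208, minus strand): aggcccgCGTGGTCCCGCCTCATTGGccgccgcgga
The 6 genes HSPA5, HSP90B1, PDIA6, CANX, CALR and XBP1 encode abundant folding factors or, for XBP1, a UPR transcription factor. The HSPA5 element lies 66 bases before the start site, and the whole HSPA5 window, chr9:125241294-125241593 on the minus strand, reads as follows, with the element in capitals.
HSPA5 promoter: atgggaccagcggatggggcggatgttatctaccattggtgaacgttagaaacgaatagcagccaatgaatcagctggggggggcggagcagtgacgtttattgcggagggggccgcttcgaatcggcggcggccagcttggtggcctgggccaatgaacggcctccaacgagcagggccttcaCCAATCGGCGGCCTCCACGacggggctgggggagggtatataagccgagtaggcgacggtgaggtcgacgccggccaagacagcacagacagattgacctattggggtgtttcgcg

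The shorter ERSE-II, ATTGG and CCACG with 1 base between them on either strand, was present in 19 of the 27305 genes (0.0696%) and in 3 of the 38 (7.89%), HERPUD1, SDF2L1 and HYOU1, with 2 copies in HYOU1.
HERPUD1 (chr16:56932015-56932045, plus strand): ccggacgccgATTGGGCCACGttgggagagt
SDF2L1 (chr22:21642104-21642134, plus strand): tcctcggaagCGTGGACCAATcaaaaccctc
HYOU1, nearer the start site (chr11:119057264-119057294, minus strand): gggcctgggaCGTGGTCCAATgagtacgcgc
HYOU1, farther (chr11:119057370-119057400, minus strand): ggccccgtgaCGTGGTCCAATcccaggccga
The UPRE core, TGACGTGG on either strand, was present in 253 of the genes (0.927%) and in 4 of the 38 (10.5%), HYOU1, SEC62, SSR3 and SSR4. In HYOU1 it overlaps the farther ERSE-II. A match is a description of the letters in this window, not a measured binding site.

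ER mRNAs were lower in vesicles than in cells in nearly the whole list. In edgeR's quasi-likelihood test with cell line as a block, 33 of the 40 fell in vesicles, 0 rose and 7 did not pass an adjusted p of 0.05. At an unadjusted p under 0.05 the count was also 33 lower and 0 higher, and DESeq2 called 31 lower and 0 higher. The share over all genes is not given here for either of these counts. Over all 15130 genes tested, 28.1% were called lower and 28.6% higher. Among the 10024 genes that averaged 10 CPM or more in cells, as all 40 did, 42.2% were called lower and 5.29% higher. The median log2 fold change of the 40 was -2.26, against 0.01 over all genes tested and -0.53 over the genes at 10 CPM or more. For 19 of the 40, every vesicle library lay below every cell library, a pattern seen in 4.35% of all genes tested and 6.53% of the genes at 10 CPM or more. For 29 of the 40 the vesicle level was the lower in 10 of 10 lines, as for 15.3% of all genes and 23% of the genes at 10 CPM or more. Together the 40 took 0.391% ± 0.109 of the counts in vesicles and 1.38% ± 0.376 in cells (SD, n = 10 lines each), lower in vesicles in 10 of 10 lines. Fewer vesicles carrying these RNAs and less of them per vesicle cannot be told apart in such libraries.

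**Figure D1:**
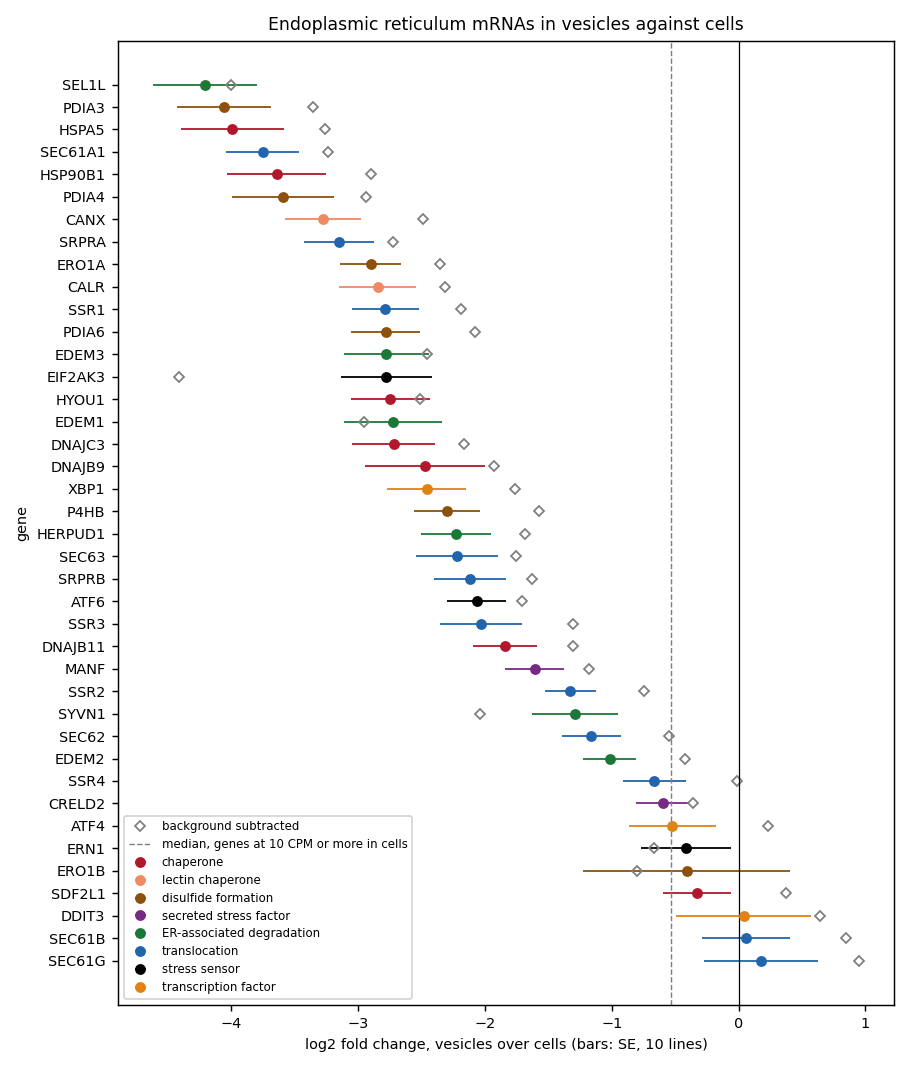
Log2 fold change of each of the 40 genes, vesicles over cells, on the horizontal axis, with bars for the SE over 10 lines, colours for the role and open diamonds for the value after subtraction of the estimated background. The dashed line is the median of genes at 10 CPM or more in cells (-0.53), and the points run from SEL1L at -4.20 to SEC61G at 0.18.

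The general chaperones fell in 6 of 7 cases, with a median log2 fold change of -2.72. HSPA5, the ER's Hsp70 and the chaperone that holds the UPR sensors inactive, had 36.7 CPM in the lowest vesicle library (LS513), 89.4 at the median and 336 in the highest (WiDr). In cells it had 768 CPM at the lowest (SW480), 1376 at the median and 4102 at the highest (COLO-201). The groups did not overlap, and COLO-201, the line with most HSPA5 in its cells, had a vesicle level of 92.8 CPM, near the median. The log2 fold change was -3.99 (SE 0.40, adjusted p = 2.55e-06).

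HSP90B1 (GRP94), the ER's Hsp90, had 34.1, 159 and 376 CPM as lowest, median and highest level in vesicles, against 1056, 1513 and 4048 CPM in cells. Its fall of -3.64 on the log2 scale (SE 0.39, adjusted p = 3.71e-06) again left no overlap between the groups. The HSPA5 nucleotide exchange factor HYOU1 (-2.74) and the J-domain co-chaperones DNAJC3 (-2.72), DNAJB9 (-2.47) and DNAJB11 (-1.84), which stimulate the ATPase of HSPA5, also fell. SDF2L1, which works with DNAJB11 and HSPA5, did not pass the test: it had 21.1 to 78.9 CPM in vesicles and 27.3 to 131 CPM in cells (log2 fold change -0.33, adjusted p = 0.306).

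Both lectin chaperones fell. CANX (calnexin), the membrane-bound lectin that holds new glycoproteins, had 93.3, 264 and 569 CPM in vesicles and 1438, 1848 and 4652 CPM in cells, as lowest, median and highest. It fell by 3.27 on the log2 scale (SE 0.30, adjusted p = 1.39e-06), with no overlap. Its soluble partner CALR (calreticulin) fell by 2.84, and the difference of 0.42 ± 0.73 between CALR and CANX in the log2 vesicle/cell ratio (SD, 10 lines) did not pass the exact sign-flip test over lines (adjusted p = 0.0949).

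Among the disulfide isomerases and oxidases, 5 of 6 fell. PDIA3 (ERp57), the isomerase that works with the lectins, had 30.8, 51.4 and 363 CPM in vesicles and 654, 1242 and 1874 CPM in cells, and fell by 4.05 (SE 0.37, adjusted p = 1.37e-06). PDIA4 had 30.8, 39.7 and 220 CPM in vesicles and 372, 595 and 2466 CPM in cells, and fell by 3.59 (SE 0.40, adjusted p = 5.30e-06). Both isomerases were without overlap between compartments. PDIA6 (-2.78) and P4HB (-2.29), the founding isomerase of the family, also fell.

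ERO1A, the oxidase that re-oxidises the isomerases, had 25.6, 37.6 and 49.1 CPM in vesicles and 123, 284 and 461 CPM in cells, and fell by 2.90 (SE 0.24, adjusted p = 1.04e-06). Its vesicle levels were the most even of these, 1.92-fold apart between the lowest and the highest library. Its paralog ERO1B had 1.5 to 16.0 CPM in vesicles and 0.673 to 47.3 CPM in cells and did not pass the test (log2 fold change -0.41, SE 0.81, adjusted p = 0.687). ERO1B counts in vesicles were 2.34 times what the background estimate alone gave. In the 5 lines of lowest background ERO1B fell by 1.69 (adjusted p = 0.0397).

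All 6 genes of ER-associated degradation fell, with a median of -2.47. SEL1L, the adaptor of the degradation complex, fell furthest of the 40: it had 6.68, 15.6 and 38.8 CPM in vesicles and 151, 334 and 542 CPM in cells (log2 fold change -4.20, SE 0.41, adjusted p = 1.97e-06). SYVN1 (HRD1), the ubiquitin ligase that SEL1L holds, had 2.42, 16.1 and 31.3 CPM in vesicles and 17.1, 29.6 and 51.7 CPM in cells (log2 fold change -1.29, SE 0.34, adjusted p = 0.00474). The SEL1L groups lay far apart while those of SYVN1 overlapped. In vesicles SYVN1 counts were 2.40 times and SEL1L counts 3.77 times the background estimate. The mannosidase-like factors EDEM3 (-2.78), EDEM1 (-2.72) and EDEM2 (-1.01), which mark misfolded glycoproteins, and the membrane protein HERPUD1 (-2.23) also fell. EDEM2 lost its call after background subtraction (-0.42, adjusted p = 0.244), with upper-quartile scaling (-0.26) and with library size only (-0.53). Both EDEM2 and SYVN1 lost it when the fit kept only genes at the filter limit in every cell library. SYVN1 also lost its call with upper-quartile scaling (-0.55), with library size only (-0.83) and in the 5 lines of highest background (-0.48), and had -2.04 after subtraction.

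The secreted stress factors MANF (-1.61) and CRELD2 (-0.60, adjusted p = 0.0242) both fell. The CRELD2 call was lost when LoVo, COLO-201 or LS123 was left out, with adjusted p of 0.195, 0.0535 and 0.0579 in that order. It was also lost without WiDr and LS123 (adjusted p = 0.0731) and with each other scaling (0.15, a change of sign, with upper quartiles). DESeq2's test, background subtraction (-0.36, adjusted p = 0.306) and the 5 lines of highest background lost it too. So did the fit that kept only genes at the filter limit in every cell library (-0.000425).

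The translocon split by subunit. SEC61A1, the pore-forming subunit, had 19, 34.9 and 89.0 CPM in vesicles and 349, 548 and 1029 CPM in cells, with no overlap (log2 fold change -3.75, SE 0.29, adjusted p = 9.38e-07). The small subunits SEC61B and SEC61G, single-span proteins of the same channel, did not pass the test. SEC61G had 38.2, 561 and 1734 CPM in vesicles and 195, 345 and 631 CPM in cells (0.18, SE 0.45, adjusted p = 0.756). SEC61B had 36.9, 299 and 637 CPM in vesicles and 134, 200 and 329 CPM in cells (0.06, SE 0.34, adjusted p = 0.898). For both, SNU-C1 was the lowest and COLO-201 the highest vesicle library. Within lines, SEC61A1 minus SEC61B in the log2 ratio was -3.76 ± 1.24 and SEC61A1 minus SEC61G was -3.84 ± 1.69 (SD), below 0 in 10 of 10 lines each (two-sided exact sign-flip test, adjusted p = 0.00558).

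Among the 5 lines of lowest vesicle background, SEC61G rose in vesicles by 1.19 (adjusted p = 0.00930) and SEC61B by 0.87 (adjusted p = 0.0130), while 19.5% of the genes tested in those lines were called higher. The mean log2 ratio of SEC61G was 1.16 ± 0.56 in these 5 lines and -0.98 ± 1.51 in the other 5 lines, and that of SEC61B was 0.84 ± 0.29 and -0.82 ± 1.08 (SD, n = 5 each). SEC61G was higher in vesicles in 5 of the 5 low-background lines and in 1 of the other 5, and so was SEC61B. After subtraction of the background SEC61B rose by 0.85 (adjusted p = 0.0207) and SEC61G had 0.95 (adjusted p = 0.0560).

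The rest of the entry machinery fell. SRPRA, the GTPase of the signal recognition particle receptor, had 5.28, 24.1 and 75.4 CPM in vesicles and 108, 204 and 460 CPM in cells (log2 fold change -3.15, SE 0.28, adjusted p = 1.20e-06), and its membrane anchor SRPRB fell by 2.12. The post-translational partners SEC63 (-2.22) and SEC62 (-1.16) fell as well, the SEC62 call being lost after background subtraction (-0.55, adjusted p = 0.126) and with upper-quartile scaling (-0.42). Of the translocon-associated SSR proteins, SSR1 (-2.79), SSR3 (-2.03) and SSR2 (-1.33) fell, and SSR4 fell least (-0.66, adjusted p = 0.0344), a call that was lost under most alternatives. It was lost without LoVo, SNU-C1, LS513 or LS123 (adjusted p = 0.423, 0.0606, 0.0692 and 0.0868 in that order). It was also lost without WiDr and LS123 (adjusted p = 0.0995) and with each other scaling (0.08, a change of sign, with upper quartiles). DESeq2's test, background subtraction (-0.01) and the lines of lowest (-0.36) and of highest background (-0.98) lost it too. So did the fit that kept only genes at the filter limit in every cell library (-0.07). The difference between SSR1 and SSR4 was -2.10 ± 0.84 and held in 10 of 10 lines.

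Of the sensors, 2 of 3 fell. EIF2AK3 (PERK), the kinase that slows translation, had 2.48, 6.99 and 22.7 CPM in vesicles and 32.1, 43.3 and 59.7 CPM in cells (log2 fold change -2.78, SE 0.36, adjusted p = 1.69e-05). ATF6, a membrane-bound transcription factor released by cleavage, had 17.6, 24.6 and 37.6 CPM in vesicles and 64.3, 101 and 253 CPM in cells (-2.06, SE 0.23, adjusted p = 5.25e-06). Neither gene's groups overlapped. ERN1 (IRE1), the nuclease that splices XBP1 mRNA, had 9.76, 22.6 and 51.7 CPM in vesicles and 12.6, 24.4 and 90.4 CPM in cells, and did not pass the test (-0.41, SE 0.35, adjusted p = 0.333). ERN1 stood above EIF2AK3 in the log2 ratio by 2.34 ± 1.28 in 10 of 10 lines (adjusted p = 0.00558), with vesicle counts of 2.40 times the background estimate for ERN1 and 2.05 times for EIF2AK3. After background subtraction the difference was 4.41 (adjusted p = 0.00651) and the fall of EIF2AK3 -4.41 (adjusted p = 0.00105).

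Of the transcription factors, XBP1 fell. It had 25.6, 96.7 and 211 CPM in vesicles and 129, 573 and 977 CPM in cells, and the level in every line was lower in vesicles although the groups overlapped (-2.46, SE 0.31, adjusted p = 1.46e-05). The counts do not separate spliced from unspliced XBP1. ATF4, the factor translated when EIF2AK3 slows other translation, had 33.5, 178 and 833 CPM in vesicles and 197, 246 and 415 CPM in cells (-0.52, SE 0.34, adjusted p = 0.207). DDIT3 (CHOP), a target of ATF4 linked to cell death, had 5.95, 37.2 and 411 CPM in vesicles and 12.9, 28.8 and 118 CPM in cells (0.04, SE 0.53, adjusted p = 0.957). COLO-201 gave the highest vesicle level of both. Its DDIT3 was 411 CPM in vesicles and 29.4 CPM in cells, and without COLO-201 the log2 fold change was -0.30 for DDIT3 and -0.75 for ATF4, which then passed the test (adjusted p = 0.0425). ATF4 also fell in the 5 lines of highest background (-1.24, adjusted p = 0.0209) and had 0.21 (adjusted p = 0.661) in the 5 lines of lowest background.

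**Figure D2:**
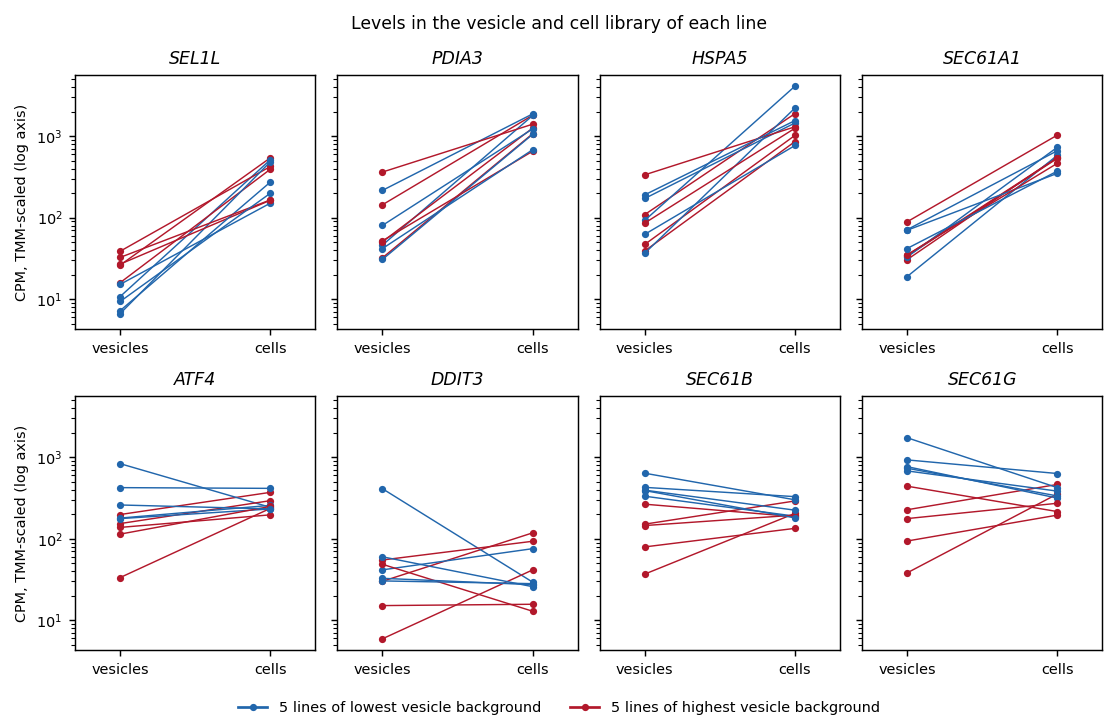
Levels of chosen genes (CPM, log axis) in the vesicle library and the cell library of each line, joined by a line, in blue for the 5 lines of lowest and in red for the 5 of highest vesicle background. HSPA5 and SEC61A1 lie lower in vesicles in 10 of 10 lines, while SEC61B and SEC61G lie higher in vesicles in all 5 blue lines and in 1 red line.

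Partners of a complex or family were compared in 20 pairs within lines, a comparison that library scaling does not touch. In 11 of the 20 the log2 vesicle/cell ratio differed at an adjusted p under 0.05, and 7 of these held in 10 of 10 lines. The pairs were chosen with earlier results of these data known, and no share over other pairs of genes was computed. An exact test over 10 lines cannot give p below 0.00195. Besides the pairs above, the differences were -2.90 ± 1.05 for SEL1L-SYVN1, -1.17 ± 0.73 for HYOU1-MANF and -0.85 ± 0.60 for PDIA4-PDIA6, each in 10 of 10 lines. For PDIA3-P4HB it was -1.73 ± 1.16, below 0 in 9 of 10 lines (adjusted p = 0.00977). After background subtraction 10 pairs passed: SEL1L-SYVN1 (-1.39, adjusted p = 0.215) and ERO1A-ERO1B (-1.69, adjusted p = 0.144) were lost and SDF2L1-CRELD2 (0.73, adjusted p = 0.0130) was gained. Without WiDr and LS123, 10 pairs also passed: ERO1A-ERO1B (adjusted p = 0.0962) and SRPRA-SRPRB (adjusted p = 0.0781) were lost and SEC62-SEC63 (1.58, adjusted p = 0.0156) was gained. The differences ERO1A-ERO1B (-2.67 ± 2.51), EDEM1-EDEM2 (-1.61 ± 1.47) and SRPRA-SRPRB (-1.04 ± 1.04) passed at an adjusted p of 0.0284, and each lost its call with single lines left out, at adjusted p of 0.0521 to 0.0568. The first did so without HCT 116, HT-29, LS123, LS513, LS1034, SNU-C1 or WiDr, the second without LS513, WiDr or HCT 116, and the third without HT-29, LS513, WiDr, HCT 116 or SW480. Pairs that did not pass included HSPA5-HSP90B1 (-0.34 ± 0.54), EDEM1-EDEM3 (0.18 ± 1.14), SEC62-SEC63 (1.04 ± 1.25, adjusted p = 0.0553) and SSR2-SSR3 (0.71 ± 0.96, adjusted p = 0.0661). Some passed with 1 line left out: HSPA5-HSP90B1 without SNU-C1 (adjusted p = 0.0426), CALR-CANX without LS1034 (0.0497), ATF6-XBP1 without HCT 116 (0.0434) and SEC62-SEC63 without LS123 (0.0156).

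**Figure D3:**
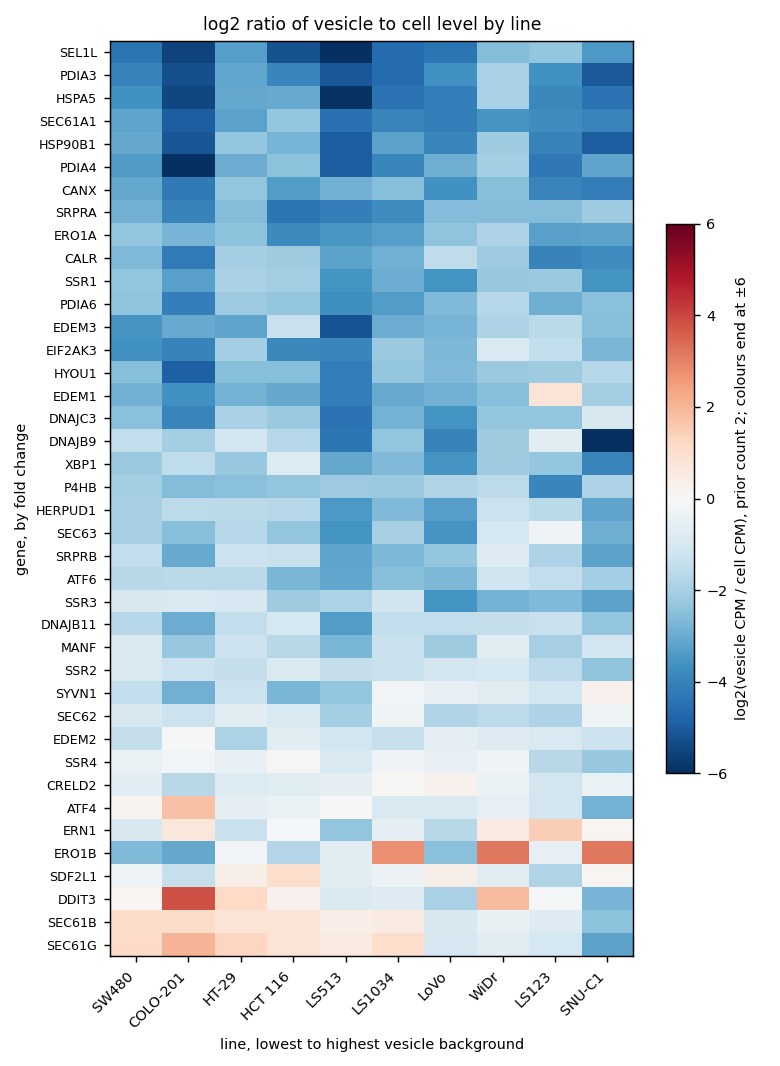
Log2 ratio of vesicle to cell level for each of the 40 genes (rows, by fold change) in each of the 10 lines (columns, from lowest to highest vesicle background), with blue for lower and red for higher in vesicles and colours ending at ±6. Most rows are blue in every column, and SEC61B and SEC61G are red in the 5 leftmost lines.

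Line by line, 35 to 38 of the 40 genes were lower in vesicles, against 61.6 to 74.4% of the genes at 10 CPM or more in cells, and the median log2 ratio ran from -3.17 (LS513) to -1.58 (WiDr). The median over genes at 10 CPM or more in cells ran from -0.999 (SNU-C1) to -0.29 (SW480). The largest single falls were DNAJB9 in SNU-C1 (-6.73, from 2 counts in the vesicle library), PDIA4 in COLO-201 (-6.20) and SEL1L in LS513 (-6.16). The estimated background made up 0.928% (COLO-201) to 31.2% (SNU-C1) of the vesicle counts of the 40 genes. WiDr vesicles held the highest level of 15 of the 40 genes, and COLO-201 cells that of 11, HSPA5, HSP90B1, PDIA4, PDIA6 and DNAJB11 among them. How often these libraries were the highest over all genes was not counted, so these counts cannot be read as particular to the list.

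Across the 10 lines, no relation between vesicle and cell levels passed adjustment for any of the 40 genes, and only 2.3% of all genes passed. A count of 0 of the 40 is near that share and cannot be read as particular to the list. Pearson's r between log2 CPM in vesicles and in cells over 10 lines had a median of 0.27 over the 40 genes, against 0.38 over all genes and 0.44 over genes at 10 CPM or more. It was above 0 for 35 of the 40, for 84.6% of all genes and for 88.8% of genes at 10 CPM or more. No gene of the 40 passed after adjustment over all genes (0 by r and 0 by Spearman's rho, permutation test with 100000 resamples, two-sided), while 2.3% of 15115 genes and 3.12% of those at 10 CPM or more passed by r. None of the 40 passed with library-size scaling or after background subtraction either, where 2.69% and 5.31% of all genes did, or with DESeq2 size factors (2.4%). Without WiDr and LS123, 0 of 15102 genes passed. At an unadjusted permutation p under 0.05 there were 4 of the 40, SSR2, SRPRA, SEC62 and SSR4, against 20.7% of all genes and 25.9% of genes at 10 CPM or more. SSR2 had the highest r, 0.82 (rho 0.87, permutation p = 0.00384, adjusted p = 0.0815), and 0.78 without LS513 and HCT 116, the 2 lines farthest from its median cell level. Without the 2 such lines of each, r was 0.32 for SRPRA, 0.34 for SEC62 and 0.12 for SSR4. For SRPRA these lines were HT-29 and WiDr, which have close cell profiles. Leaving out such lines also narrows the range of cell levels, and the same value over all genes was not computed. The SD of log2 CPM between lines had a median of 0.90 in vesicles and 0.63 in cells over the 40 genes. Over genes at 10 CPM or more these medians were nearly the same, 0.88 in vesicles and 0.63 in cells.

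Within a compartment, several chaperones and isomerases varied together with HSPA5, not all in both compartments: r for DNAJC3 was 0.05 in vesicles and 0.79 in cells. In vesicles, r with HSPA5 over the 10 lines was 0.89 for PDIA3, 0.87 for PDIA4, 0.86 for DNAJB11 and 0.84 for CALR. In cells it was 0.87 for PDIA4, 0.86 for HSP90B1 and 0.77 for both DNAJB11 and MANF. The median over all the other listed genes was 0.25 in vesicles and 0.44 in cells, against 0.06 and 0.02 over the 9616 genes at 10 CPM or more in both compartments. These values are descriptions over 10 points that share their libraries and 2 close pairs of lines. COLO-201 cells had the highest level of HSPA5, PDIA4, HSP90B1, DNAJB11 and MANF. WiDr vesicles had the highest level of HSPA5, PDIA3 and PDIA4, and HCT 116 vesicles that of DNAJB11 and CALR. Values of r without these libraries are not given here. Of the 11 genes with an ERSE or ERSE-II, the 10 other than HSPA5 itself had median r with HSPA5 of 0.42 in vesicles and 0.56 in cells, and the 27 genes with neither had 0.23 and 0.33. The median log2 fold change was -2.74 over the 11 genes with the elements (9 called lower) and -2.06 over the 27 without (22 called lower).

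In the log2 vesicle/cell ratio, the genes outside the list most like HSPA5 over the 10 lines were OSTM1 (r = 0.94), GALNT5 (0.94), DSG2 (0.93), SLC39A6 (0.92) and PDP2 (0.91), of 9616 genes compared. Of the list, SRPRB (0.93) and PDIA6 (0.91) ranked 3 and 7.

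Per kilobase of exon, the order of levels differed between the compartments. In vesicles SEC61G (316 CPM per kb), SEC61B (240), ATF4 (99.9), DDIT3 (55.9) and CANX (42.3) stood highest. In cells HSP90B1 (425 CPM per kb), HSPA5 (420), CANX (388), PDIA3 (302) and PDIA4 (253) stood highest. These vesicle means rest on libraries 45-fold apart for SEC61G, 17-fold for SEC61B, 24.9-fold for ATF4, 69.1-fold for DDIT3 and 6.10-fold for CANX.

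Longer coding sequences went with larger falls. Over the 40 genes, Spearman's rho between log2 fold change and coding length was -0.54, and -0.68 after background subtraction, against -0.23 over 10020 genes at 10 CPM or more. Of the 7 genes with up to 600 coding bases (SSR3, MANF, SSR2, SSR4, DDIT3, SEC61B and SEC61G), 4 fell, with a median of -0.66. In that class 16.5% of genes fell, with a median of 0.01. Of the 19 genes with 1200 to 2400 coding bases, 18 fell, with a median of -2.78, against 50.4% of genes and a median of -0.71 in that class. The corresponding median of the 5 genes above 2400 bases was also -2.78, against -0.77 in a class where 53.6% of genes fell. Genes are not independent replicates, and the part of length in these differences was not tested.

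**Figure D4:**
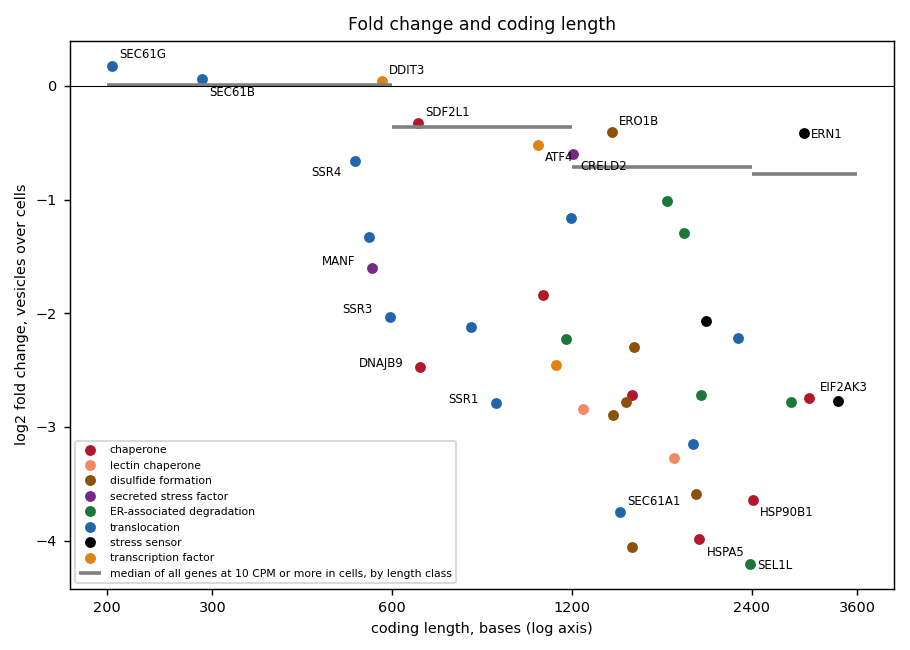
Log2 fold change, vesicles over cells, of each of the 40 genes against coding length in bases (log axis), coloured by role, with grey bars for the median of all genes at 10 CPM or more in cells in each length class. The shortest genes, SEC61G and SEC61B, lie at 0.18 and 0.06, and in each class the 40 genes' median lies below the grey bar.

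Other ER genes were counted from lists of related machinery. The lectin cycle, whose glucosidases and cargo receptors serve CANX and CALR, had 8 of 8 tested genes lower (median -2.78, from GANAB at -3.29 to LMAN2 at -1.62). The oligosaccharyltransferase, which attaches glycans at the translocon, had 7 of 11 lower and 0 higher (median -2.52). Its catalytic subunit STT3B had -3.49 and its very small subunit OST4 had 0.56. Further degradation factors had 13 of 15 lower and 1 higher (median -1.45), from FAF2 at -2.61 to DERL3 at 2.80, the gene called higher. DERL3 averaged 8.54 ± 5.57 CPM in vesicles and 1.83 ± 1.77 CPM in cells (SD, n = 10 each) and lost its call after background subtraction (1.57, adjusted p = 0.349). Targets of ATF4 had 8 of 12 lower (median -1.27), from the cystine transporter SLC7A11 at -3.05 to VLDLR at 0.55.

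The medians of 4 other lists were closer to 0. Signal peptidase, which trims signal sequences, had 4 of 5 lower (median -1.07), from SPCS3 at -2.44 to SEC11C at -0.60. The ER membrane complex, an insertase, had 6 of 9 lower (median -0.83), from EMC1 at -2.51 to EMC6 at 0.39. The signal recognition particle, which works in the cytosol, had 2 of 6 lower (median -0.42), from SRP54 at -1.34 to SRP19 at 0.00. Tail-anchor insertion, largely cytosolic, had 2 of 7 lower (median -0.19), from BAG6 at -1.81 to GET4 at 0.15. These counts stand beside 42.2% of genes at 10 CPM or more called lower.

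After background subtraction, where 19.2% of genes were lower and 14.9% higher, the lectin cycle still had 8 of 8 lower. The oligosaccharyltransferase had 6 of 11 lower and 2 higher, OST4 (1.33) and TMEM258 (0.93), and the further degradation factors 10 of 15 lower and 1 higher, UFD1 (0.77, adjusted p = 0.00721). Targets of ATF4 had 3 of 12 lower, signal peptidase 2 of 5, the ER membrane complex 4 of 9 with EMC8 higher (0.75), the signal recognition particle 1 of 6 and tail-anchor insertion 1 of 7.

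Estimated background differed between vesicle libraries. After its subtraction 29 of the 40 genes fell and SEC61B rose, with a median of -1.76, against -0.15 over all genes. In the 5 lines of lowest background 33 fell, 2 rose and the median over all genes was 0.10, with 19% of genes called lower. In the 5 lines of highest background 31 fell, where 25.5% of genes did. Markers of other cell types that are in the table averaged 1 CPM or more in vesicles for 4 of 4 leukocyte, 4 of 4 plasma cell, 6 of 6 fibroblast and endothelial, and 4 of 4 hepatocyte and serum genes. In cells the counts were 2, 1, 2 and 1. Marker sums were 15.2 to 125 CPM in vesicles and 54.7 to 869 CPM in cells for plasma cells, and 18.8 to 398 CPM in vesicles and 0.363 to 15.8 CPM in cells for fibroblasts and endothelium. They were 4.98 to 984 CPM in vesicles and 0.0606 to 2735 CPM in cells for leukocytes, and 6.28 to 677 CPM in vesicles and 0.374 to 758 CPM in cells for hepatocytes and serum, and none of these markers had a mean of 0 in a compartment. The part of these markers in the results was not tested.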

How the data were processed

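The deposited table holds unnormalised read counts for 17113 protein-coding symbols, in 20 columns that each matched the title of 1 library, with 0 columns left unmapped. Reads were mapped to hg19 with STAR and counted with featureCounts, per the submitters' processing notes; their versions, the annotation used and the strandedness option are not given in the sources used here. Reads from overlapping genes, antisense genes and processed pseudogenes (GENCODE 29 lists 4 for ATF4, 2 each for PDIA3, SEC63 and SSR1, and 1 each for SSR4 and XBP1) cannot be told apart from the counts.

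Vesicles and cells of the same line were compared with edgeR 4.0.16 in R 4.3.3 (robust quasi-likelihood fit, TMM scaling, filterByExpr with a minimum count of 10, cell line as block), with Benjamini-Hochberg adjustment over 15130 genes and a threshold of 0.05. The pairing comes from the labels, which give each vesicle library the line of 1 cell library; r between the 2 libraries' deviations was 0.22 to 0.64 over the lines. Log2 fold changes are vesicles over cells, with SE taken as their size over the root of the F statistic. Single values are TMM-scaled CPM, except marker values and detection limits, which use library size alone. Log2 ratios within a line use a prior count of 2. Background was fitted by Poisson regression on exonic length and GC content (GENCODE 29, symbols matched for 17070 genes, 99.7%), and the same annotation gave exonic lengths for levels per kilobase and coding lengths. DESeq2 1.42.0 and other scalings, filters and sets of lines were alternatives; the pair tests without WiDr and LS123 were added after seeing the data. With 3 counts as the limit that 0 counts allow, detection began at 0.123 to 1.72 CPM in vesicles and 0.0802 to 0.121 CPM in cells, counting error only. These limits are not TMM-scaled and cannot be set directly against the TMM-scaled values.

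The 40 genes, the other lists and the pairs were chosen with earlier results of these data known. Values were given for the 8 largest falls, the 4 highest fold changes, the sensors, transcription factors, SEC61 subunits, HSPA5 and both ERO1 oxidases, and for the ends of each other list. The fits were also run on simulated counts, with no differences between lines and no background added to vesicles. That run therefore does not cover those features of the data, and its outcome is not given here.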

Additional observations from a re-analysis of the deposited data

Results flagged for a closer look

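Of 80 groups of 10 libraries (40 genes in 2 compartments, log2 CPM), 6 held a library whose distance to its nearest neighbour exceeded Dixon's 95% limit as a share of the whole range. Chance flags about 1 in 20 such groups. In vesicles, EDEM1 was lowest in HCT 116, at 2.64 CPM against 8.37 CPM in the next library. DNAJB9 was lowest in SNU-C1 vesicles, the shallowest library, at 0.626 CPM from 2 counts, against 10.4 CPM in the next. CRELD2 was highest in LoVo vesicles, at 47.4 CPM against 33.3 CPM in LS513. In cells, PDIA4 (2466 CPM against 973 CPM in HT-29) and DNAJB11 (362 CPM against 201 CPM in HT-29) were highest in COLO-201, the line with the highest HSPA5 in its cells. SEC63 was lowest in LS123 cells, at 40.6 CPM against 119 CPM in HT-29.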

How the results depend on the processing

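Of the 33 genes called lower, 28 kept the call under every alternative run, and SYVN1, EDEM2, CRELD2, SEC62 and SSR4 lost it in 1 or more. The count was 28 to 33 throughout, 31 to 33 with 1 line left out, and 31 without WiDr and LS123. Shares of all genes called lower are given only for the main fit, after background subtraction and for the lines of lowest and of highest background. Counts under the other alternatives therefore cannot be read as particular to the 40 genes. The pairs called numbered 11 with all lines and 8 to 11 under the alternatives. Without the line block (no replicate block) 32 were lower, SSR4 lost its call, and the median was -2.31. The median over the 40 genes was -1.52 to -2.46. Scaling moved the median of all genes to 0.38 with DESeq2 size factors, 0.76 with upper quartiles and 0.48 with library size only, from 0.01 with TMM, and the 40 genes' median moved with it. Genes called higher numbered 1 with upper-quartile scaling and 1 after background subtraction (SEC61B in both), and 2 in the 5 lines of lowest background (SEC61B and SEC61G). The cause of changes was not tested.

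Genes near 0 changed sign. SDF2L1 had 0.0449 with DESeq2 size factors, 0.42 with upper quartiles, 0.14 with library size only, 0.0452 in DESeq2's own test, 0.27 with genes at the filter limit in every cell library and 0.38 after background subtraction. ATF4 had 0.22 with upper quartiles, 0.0672 with that cell filter, 0.24 after subtraction and 0.21 in the 5 lines of lowest background, but fell by 1.24 in the 5 lines of highest background. ERN1 had 0.33 with upper quartiles, 0.0492 with library size only and 0.18 with the cell filter. ERO1B had 0.31, 0.0145 and 0.15 under the same alternatives and 1.5 in the 5 lines of highest background. In those 5 lines SEC61G had -0.96, SEC61B -0.81 and DDIT3 -0.79. DDIT3 had -0.20 without WiDr and LS123. The EDEM1-EDEM3 difference was -0.42 after subtraction.

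With 1 line left out, log2 fold changes were -0.61 to 0.0764 for ERN1, -0.81 to 0.27 for ERO1B, -0.0445 to 0.69 for SEC61G, -0.0856 to 0.54 for SEC61B and -0.30 to 0.61 for DDIT3, and the EDEM1-EDEM3 difference was -0.0757 to 0.39. Depth limits the low genes most: in SNU-C1, LS123, WiDr and LoVo vesicles (1.75 to 3.24 M counts), 3 counts are 0.925 to 1.72 CPM by library size alone.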
